A study of Mus musculus with 16 samples.

Results

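The genes described here are 7 markers of microglia, the resident macrophages of the brain, chosen by name: P2ry12, Csf1r, Ly86, Cx3cr1, C1qa, C1qb and Mertk. Of these, 6 were listed in the authors' deposited tables, all 6 in both, out of 8289 gene identifiers listed in either table. Cx3cr1, the receptor of the neuronal chemokine fractalkine, was listed in neither table, so no value can be given for it; it was untested, missed the authors' threshold or was omitted. Hypothalamic RNA was compared with RNA bound to tagged ribosomes of neurons that express prepronociceptin (Pnoc). In such mice (BacTRAP) the ribosomal protein L10a is fused to a green fluorescent protein in the targeted cells, and an antibody against that protein precipitates the ribosomes with their RNA. All 16 libraries came from the Hypothalamus of PNOC-L10a-EGFP mice of strain C57BL/6N, aged 10 to 12 weeks. The mice had received control diet (CD, chow) or high-fat diet (HFD) for 3 days. Each diet had 4 input libraries, made before precipitation, and 4 immunoprecipitate libraries. No library without the tag is among the 16, so what precipitates without tagged ribosomes was not measured. The labels do not say whether a library is 1 animal or a pool, so the authors' q-values reflect the spread among these libraries alone, which may be technical.

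Microglia depend on signalling through the receptor kinase Csf1r, sense nucleotides released by injured or active cells through P2ry12, and are reached by neurons through fractalkine. They are the main source of complement C1q in the brain, which tags synapses and debris, and they take up dying cells through the receptor kinase Mertk. In the hypothalamus, microglia are known for their response to diets rich in fat. Neither Pnoc neurons nor other neurons are known as a main source of these transcripts, and Mertk is also expressed by astrocytes.

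Levels are in FPKM, fragments scaled to transcript length and to the number of mapped fragments, with a single value for each fraction of each diet and none for the separate libraries. Read depth and the spread between libraries are therefore unknown, and every FPKM, log2 fold and q-value for a single diet is the authors' deposited value. Both tables hold significant entries only. The median log2 fold of listed tests was 0.37 in chow and 0.39 in the high-fat table. After subtraction of that median, every fold named below kept its direction. As a check of the precipitation, Pnoc stood at 431% of its input level in chow and at 454% after the high-fat diet in the authors' deposited tables.

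The C1q genes lie side by side. In the GENCODE annotation of GRCm38, C1qb (ENSMUSG00000036905) spans chromosome 4 from 136880129 to 136886187, and C1qa (ENSMUSG00000036887) from 136895917 to 136898803. C1qc, the gene of the remaining C1q chain, lies between them, and all 3 are on the minus strand within 18.7 kb. P2ry12 (ENSMUSG00000036353) covers 59216272 to 59262871 of chromosome 3 on the minus strand, inside Med12l, which runs on the plus strand from 59005825 to 59318682. Ly86 (ENSMUSG00000021423) lies on chromosome 13 at 37345208 to 37419036 and Mertk (ENSMUSG00000014361) on chromosome 2 at 128698956 to 128802894, both on the plus strand. The deposited spans of C1qa, C1qb, Ly86 and Mertk matched these genes. That of P2ry12 was 349 kb wide and also covered Med12l.

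The bases before the start sites of C1qb and P2ry12 are shown because the data bear on these genes and on Spi1 and Runx1, the genes of 2 transcription factors of the macrophage lineage. Each run holds the 250 bases upstream of the start, read 5′ to 3′ on the gene's own strand, from RefSeq with build GRCm38.p6. The windows are chr4:136886201-136886450 for C1qb and chr3:59262986-59263235 for P2ry12, both on the minus strand, and both lie outside the GENCODE bounds of these genes. Capitals mark matches, on either strand, to GAGGAA and GGAAGT, core words of motifs bound by the Spi1 protein PU.1, which can overlap, or to TGTGGT, the core of the RUNX motif, which neither window holds.
C1qb: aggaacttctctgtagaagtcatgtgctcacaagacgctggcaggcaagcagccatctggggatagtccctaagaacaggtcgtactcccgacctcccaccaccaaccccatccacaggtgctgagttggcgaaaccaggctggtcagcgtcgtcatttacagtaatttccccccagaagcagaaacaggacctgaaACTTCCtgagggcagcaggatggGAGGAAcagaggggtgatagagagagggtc
P2ry12: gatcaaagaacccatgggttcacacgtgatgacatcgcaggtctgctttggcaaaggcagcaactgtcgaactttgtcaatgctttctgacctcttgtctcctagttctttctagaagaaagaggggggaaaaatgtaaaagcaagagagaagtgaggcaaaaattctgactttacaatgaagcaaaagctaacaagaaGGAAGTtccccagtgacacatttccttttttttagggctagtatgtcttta

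In the C1qb window GGAAGT was found on the opposite strand 53 to 48 bases before the start and GAGGAA 30 to 25 bases before it. In the P2ry12 window GGAAGT lay 51 to 46 bases before the start. Promoter sequences matched 5 of the 7 members, and of these GAGGAA was in 1 (C1qb), GGAAGT in 2 (C1qb and P2ry12) and TGTGGT in 1 (Cx3cr1). The 2 windows shown are thus the only ones of the 5 with GAGGAA or GGAAGT and do not stand for the others. Over 32851 promoter windows of the same length, these words were in 23.3%, 19.7% and 14.0%. A match describes letters and is not a binding site.

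The first comparison asks which RNA tagged ribosomes carried in chow-fed mice, with microglial transcripts as RNA of another cell type. All 6 listed members fell in the chow immunoprecipitate, each to under 10% of its input level. Their median log2 fold was -3.59 in the authors' deposited table, or 8.32% of input, with a narrow range from 6.49% to 9.43%. Among all listed chow tests 46.2% were depleted, and 5.31% were depleted at least 8-fold, whereas 6 of the 6 listed members were depleted at least 8-fold. That size depends on the low immunoprecipitate levels: with 1 FPKM added to both levels the median was -2.45 and the members ran from -2.76 (C1qb) to -1.52 (C1qa), each short of 8-fold. The median depleted test of the chow table stood at 41.0% of input. This value and the shares above are over listed tests of all levels, and listed tests as low as the members were not compared apart. In bulk RNA, fewer cells of a type and less RNA per cell cannot be told apart, and in an immunoprecipitate neither can be told from RNA that came down without tagged ribosomes.

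**Figure D1:**
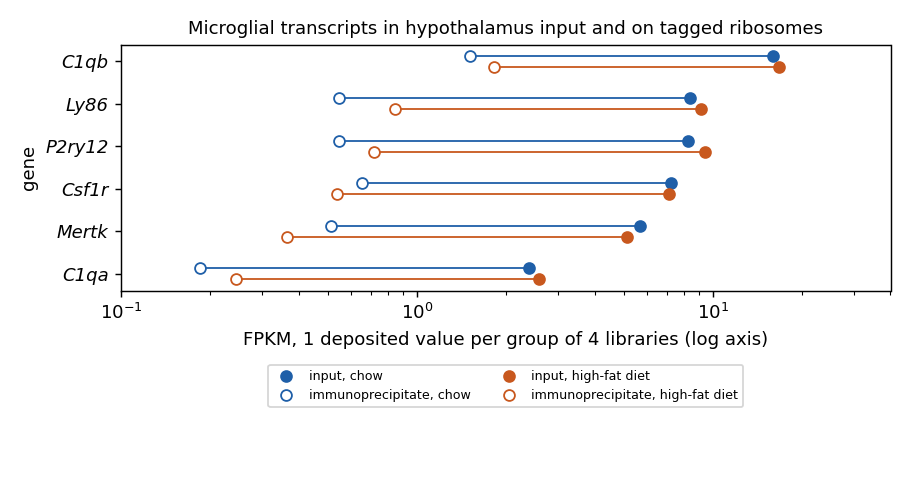
FPKM (log axis) of the 6 listed microglial genes in input (filled) and immunoprecipitate (open) for chow (blue) and high-fat diet (orange), 1 deposited value per group of 4 libraries and no error bar because no value per library is known. In each gene both input values lie to the right of both immunoprecipitate values, with C1qb highest and C1qa lowest in every group.

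C1qb and C1qa encode chains of C1q, the recognition molecule that starts the classical complement pathway. C1qb went from 16.0 FPKM in the chow input to 1.51 FPKM in the immunoprecipitate in the authors' deposited table (log2 fold -3.41, standard error 0.42, q = 0.000379). C1qa went from 2.40 to 0.184 FPKM (log2 fold -3.70, standard error 0.90, q = 0.000379, authors' deposited table). The standard errors were recovered from the deposited test statistic. C1qc, which was not among the members, went from 8.59 to 0.881 FPKM in the authors' deposited chow table and stood at 10.3% of input. The protein holds all 3 chains in equal numbers, but the C1qb level was 6.68 times that of C1qa in the chow input and 8.21 times in the immunoprecipitate, and 1.87 and 1.72 times that of C1qc. FPKM is per length, so these are ratios of levels between genes, but their error is unknown.

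Csf1r (ENSMUSG00000024621) is the receptor for the growth factors Csf1 and Il34 and lies on chromosome 18 at 61100598 to 61132149 on the plus strand. Its deposited span, 61105572 to 61177050, was 71.5 kb wide and began inside the GENCODE bounds of Csf1r. That span also covered Hmgxb3, on the opposite strand, which was not listed. The genes overlap from 61131277 to 61132149, where reads may be shared. Csf1r went from 7.21 FPKM in the chow input to 0.652 FPKM in the immunoprecipitate in the authors' deposited table (log2 fold -3.47, standard error 0.83, q = 0.000379). Mertk, which binds bridging proteins on the surface of dying cells, went from 5.68 to 0.513 FPKM (log2 fold -3.47, standard error 0.39, q = 0.000379, authors' deposited table). Its fold had the smallest standard error of the 6 members in chow. The folds of Csf1r and Mertk were nearly the same, at 9.04% and 9.03% of input.

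Ly86 encodes MD-1, the partner of the Toll-like receptor protein RP105 (gene Cd180). It went from 8.42 to 0.546 FPKM in the authors' deposited chow table (log2 fold -3.95, standard error 0.55, q = 0.000379), the lowest fold of the members in that diet. Of the listed chow tests with a finite fold, 60 had a lower fold than Ly86, or 0.899%. C1qb, the least depleted member, had 175 tests below it, or 2.62%.

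P2ry12, the ADP receptor that marks resting microglia, went from 8.25 to 0.547 FPKM in the authors' deposited chow table (log2 fold -3.91, q = 0.00723). It stands next to Ly86 in level and in fold, but its standard error of 3.12 log2 units was the largest of the members. Med12l, on the opposite strand and with the same deposited span, was listed in chow, with 11.5 FPKM in input and 8.49 in immunoprecipitate (log2 fold -0.44, q = 0.0453, authors' deposited table). Use of strand in read assignment is not given in the sources used here, so reads of P2ry12 and Med12l may be shared, and the part of this overlap in the standard error was not tested.

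**Figure D2:**
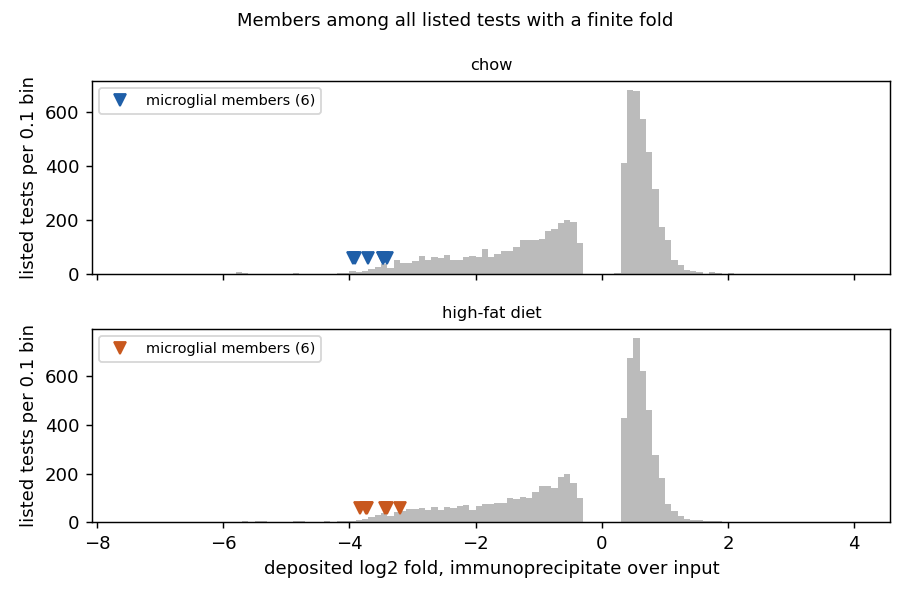
Number of listed tests per bin of 0.1 log2 units (grey) against the deposited log2 fold of immunoprecipitate over input, for chow (top) and high-fat diet (bottom), with the 6 listed members as triangles at an arbitrary height. The members lie between -3.95 and -3.20 in the lower tail of both distributions, and the gap around 0 reflects that only significant tests are listed.

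The second comparison repeats this after 3 days of high-fat diet. All 6 listed members were again depleted, with a median log2 fold of -3.58 in the authors' deposited table, or 8.37% of input, and a range from 7.05% to 10.9%. With 1 FPKM added to both levels the median was -2.43, short of 8-fold. Among all listed high-fat tests 44.8% were depleted and 5.44% were depleted at least 8-fold, against 6 of 6 listed members for both. These shares are again over listed tests of all levels. Summed over the 6 members, the level was 48.0 FPKM in the chow input and 50.2 FPKM in the high-fat input, and 3.95 and 4.53 FPKM in the immunoprecipitates. The members thus summed to 8.24% of input in chow and 9.02% after the high-fat diet.

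In the authors' deposited high-fat table, C1qb went from an input level of 16.7 FPKM to 1.82 FPKM in immunoprecipitate (log2 fold -3.20, standard error 0.40, q = 0.000379). C1qa went from 2.59 to 0.244 FPKM (log2 fold -3.41, standard error 0.81, q = 0.000379), and C1qc from 7.55 to 1.01 FPKM (log2 fold -2.90), in the authors' deposited table. The C1q genes were thus again ordered C1qb, C1qc, C1qa by level in both fractions.

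Csf1r went from 7.13 to 0.537 FPKM in the authors' deposited high-fat table (log2 fold -3.73, standard error 0.99, q = 0.000379). Mertk went from 5.16 to 0.363 FPKM (log2 fold -3.83, standard error 0.42, q = 0.000379, authors' deposited table). Mertk had the lowest fold of the members in this diet, where Ly86 had it in chow.

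Ly86 went from 9.14 to 0.846 FPKM in the authors' deposited high-fat table (log2 fold -3.43, standard error 0.49, q = 0.000379). P2ry12 went from 9.46 to 0.715 FPKM (log2 fold -3.72, standard error 3.02, q = 0.0263, authors' deposited table), and Med12l was not listed in that table. At a stricter q of 0.01, P2ry12 would not be called in the high-fat diet, which leaves 5 members.

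By input level the members were ordered C1qb, Ly86, P2ry12, Csf1r, Mertk and C1qa in chow, and the same after the high-fat diet except that P2ry12 stood above Ly86. In the chow immunoprecipitate Csf1r, P2ry12, Ly86 and Mertk lay within 0.513 to 0.652 FPKM. After the high-fat diet these 4 genes spread from 0.363 to 0.846 FPKM, in the order Ly86, P2ry12, Csf1r and Mertk. Without values per library, it is not known which neighbours in these orders differ beyond their spread.

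The third comparison asks whether the depletion differed between the diets. It took the change in log2 fold of each test, high-fat minus chow, centred on the median of all tests in both tables, with a two-sided z-test from the recovered standard errors. Only tests listed as significant in both diets could enter, so genes listed in a single diet were left out in advance. Of 5148 tests, 0 were called at an adjusted p of 0.05 (Benjamini-Hochberg, 0% called), and 1 had an unadjusted p under 0.05. With no diet difference at all, a calibrated test would place a share of about 0.05 of the tests there. The z-test was thus very conservative over the table and could call little, so its lack of calls says little about the diets. None of the 6 members was called by this test, and 0 had an unadjusted p under 0.05. The z-test is a normal approximation for 4 libraries a group, and no exact permutation test can be computed without values per library.

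Of the 6 members, 4 had a less negative fold after the high-fat diet and 2 a more negative one. The difference was 0.51 log2 units for Ly86 (95% interval -0.94 to 1.96), 0.29 for C1qa (-2.08 to 2.66), 0.20 for C1qb (-0.93 to 1.33) and 0.18 for P2ry12 (-8.33 to 8.69). It was -0.27 for Csf1r (-2.79 to 2.26) and -0.36 for Mertk (-1.49 to 0.76). Every interval includes 0, and even the intervals of Mertk and C1qb leave room for a difference of about 1 log2 unit, so the data do not show that the diets act alike. The interval of P2ry12 is too wide to limit any difference.

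**Figure D3:**
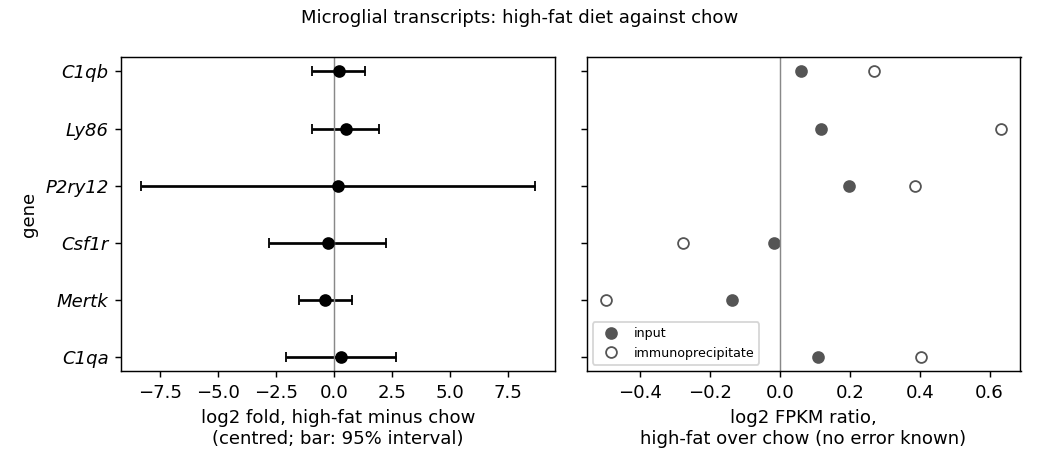
Left, high-fat minus chow difference in log2 fold for each listed member, centred on all tests, with its 95% interval. Right, log2 ratio of the deposited FPKM, high-fat over chow, in input (filled) and immunoprecipitate (open), with no error known. All 6 intervals on the left cross 0, and on the right the immunoprecipitate points reach from -0.50 to 0.63 while the input points stay between -0.14 and 0.20.

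The tissue level of the members was close between diets. In the inputs, the log2 ratio of the deposited FPKM, high-fat over chow, ran from -0.14 (Mertk) to 0.20 (P2ry12), with a median of 0.085, and 4 members were higher and 2 lower. Over all 5148 tests the middle 90% ran from -0.23 to 0.18, so P2ry12 lay just outside and the other members inside. In the immunoprecipitates the ratio ran from -0.50 (Mertk) to 0.63 (Ly86), with a median of 0.33, against a middle 90% of -0.33 to 0.27 over all tests, and 4 members lay outside. These levels are low, and over the 208 tests depleted at least 8-fold in both diets the middle 90% was wider, from -0.61 to 0.65. It is not stated whether both tables were scaled together, and none of these ratios has a known error or a test.

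Genes that act with the members were described from lists chosen by role. Counts of depleted genes on these lists stand beside 46.2% of all listed tests depleted in chow and 44.8% in the high-fat table. Of the ligands of member receptors on these lists, Cx3cl1, Gas6 and, in chow, Il34 were higher on tagged ribosomes than in input, while Csf1 and Pros1 were lower. Cx3cl1 (fractalkine, displayed by neurons and read by Cx3cr1) went from 33.4 to 55.9 FPKM in the authors' deposited chow table (log2 fold 0.74, q = 0.000379) and from 32.5 to 51.5 FPKM in the high-fat table (0.66, q = 0.000379). Adam10 and Adam17, the proteases that shed fractalkine from the membrane, were depleted, at log2 folds of -0.47 and -1.49 in the authors' deposited chow table and -0.53 and -1.75 in the high-fat table.

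The ligands of Csf1r differed from each other. Il34, the ligand made mainly by neurons, went from 5.88 to 8.97 FPKM in the authors' deposited chow table (log2 fold 0.61, q = 0.0131) and was not listed in the high-fat table. Csf1 was depleted in the authors' deposited tables, from 7.21 to 4.13 FPKM in chow and from 7.10 to 4.35 FPKM after the high-fat diet, and kept 57.3% and 61.3% of its input level. The genes downstream of Csf1r and of related receptors followed the receptor in direction. Tyrobp, the signalling adaptor DAP12, fell to 10.2% and 11.5% of input in the authors' deposited chow and high-fat tables, Inpp5d, a lipid phosphatase, to 18.0% and 22.5%, and Plcg2, a phospholipase, to 62.6% and 55.7%. Spi1 (PU.1), which turns on Csf1r in macrophages, went from 1.28 to 0.215 FPKM in the authors' deposited chow table and from 2.17 to 0.225 FPKM in the high-fat table. Runx1 fell to 13.3% and 16.1% of input in the authors' deposited tables, from inputs of 0.534 and 0.494 FPKM. The recovered standard errors, in chow and high-fat, were 0.50 and 0.48 log2 units for Tyrobp and 0.44 and 0.45 for Plcg2. They were wider for Inpp5d (2.97 and 1.42), Spi1 (1.46 and 1.29) and Runx1 (2.64 and 2.35). Of this list of 8, 6 were depleted in each diet, Il34 was enriched in chow, and Irf8 was not listed.

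The ligands of Mertk split in the same way. Gas6, which bridges Mertk and Axl to phosphatidylserine on dying cells, went from 15.4 to 23.8 FPKM in the authors' deposited chow table (log2 fold 0.63, q = 0.000379) and from 15.2 to 22.9 FPKM in the high-fat table (0.60, q = 0.000379). Pros1, the other ligand of Mertk, fell to 19.7% and 27.6% of input in the authors' deposited chow and high-fat tables. Axl, a receptor kinase of the same family, stood at 11.2% and 10.9% of input in the authors' deposited tables, and Mfge8, which bridges dying cells to integrins, at 11.8% and 10.2%. Itgav, the integrin subunit that binds Mfge8, stood at 23.6% and 26.0% in the authors' deposited tables. Tyro3, the remaining receptor of the family, was not listed.

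**Figure D4:**
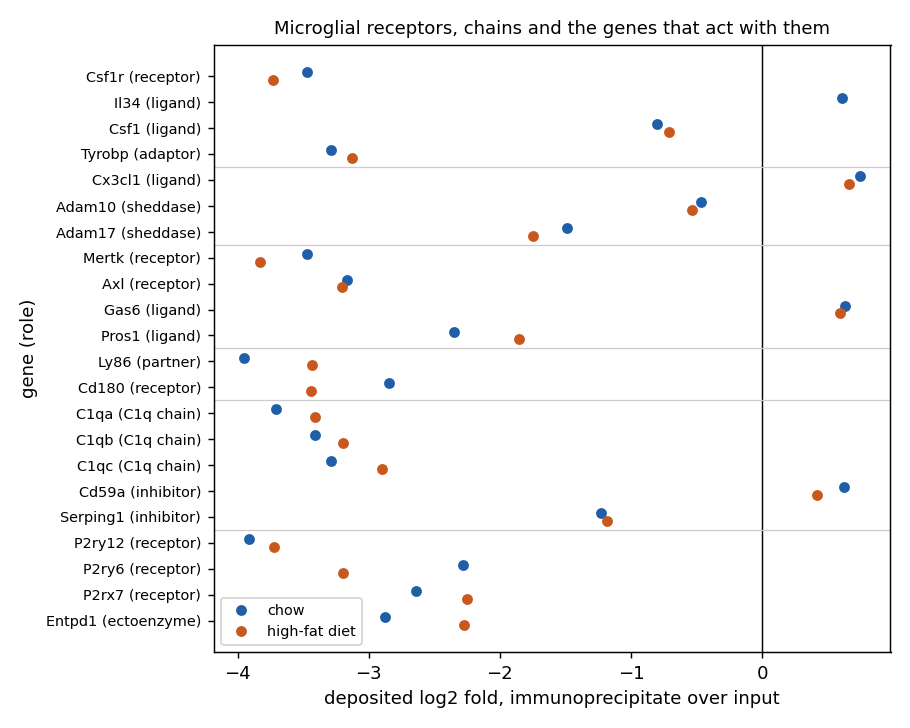
Deposited log2 fold of immunoprecipitate over input (x axis) for members and some of the genes that act with them (C3 is not drawn), grouped by pathway, in chow (blue) and high-fat diet (orange). Of the genes drawn, the ligands Il34, Cx3cl1 and Gas6 and the inhibitor Cd59a lie right of 0, and the members and C1qc lie left of -2.8.

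Complement genes other than C1qa and C1qb went both ways. Of 12 listed by role, 7 were depleted and 2 enriched in the authors' deposited chow table, and 7 and 1 in the high-fat table. C3ar1, a receptor for a fragment of C3, stood at 13.2% and 11.6% of input in the authors' deposited tables, and C4b, which is cleaved after C1q binds, at 16.9% and 17.7%. The inputs of C3ar1 were low, at 0.623 and 0.682 FPKM. Itgam and Itgb2, which pair as complement receptor CR3, stood at 8.05% and 37.8% of input in the authors' deposited chow table and at 7.81% and 21.8% in the high-fat table, but the test of Itgam is shared with the overlapping Gm49368. C2 shares its test with Cfb and stood at 41.9% and 43.4% of input in the authors' deposited tables. The inhibitor of C1, Serping1, stood at 42.7% and 44.1% in the authors' deposited tables. Cd59a, a membrane inhibitor of the last step of complement, was enriched, from 14.3 to 22.0 FPKM in the authors' deposited chow table (log2 fold 0.62) and from 12.8 to 17.1 FPKM in the high-fat table (0.42, q = 0.0155). C3 was enriched in chow from 0.544 to 1.82 FPKM (log2 fold 1.74, standard error 1.23, q = 0.00877, authors' deposited table) and was not listed after the high-fat diet.

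Other sensors of nucleotides were depleted too, at higher shares of input than P2ry12, a difference that was not tested. The UDP receptor P2ry6 stood at 20.6% and 10.9% of input in the authors' deposited chow and high-fat tables, and the ATP-gated channel P2rx7 at 16.1% and 21.0%. P2ry6 rests on inputs of 0.505 and 0.743 FPKM, with standard errors of 1.48 and 1.76 log2 units. Entpd1, the ectoenzyme that removes ATP and ADP, stood at 13.6% and 20.7% in the authors' deposited tables, and Nt5e, which makes adenosine, at 38.9% and 40.3%. The other 4 genes of that list of 8, P2ry13, P2rx4, Gpr34 and Adora3, were not listed. Cd180, the partner of Ly86, stood at 13.9% and 9.22% of input in the authors' deposited tables, with standard errors over 4 log2 units. Of its list of 8 genes of innate sensing and signalling, 4 were depleted in chow and 2 in the high-fat table, and 0 were enriched. In chow Tlr4, Tlr7 and Cd14 had inputs of at most 0.571 FPKM. Tlr7, a receptor for RNA, had log2 folds of -4.50 and -2.14 in the authors' deposited tables, with standard errors of 11.4 and 2.50.

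Most of a wider set of microglial genes was depleted with the members. Of 25 other microglial genes, 21 were depleted and 1 enriched in the authors' deposited chow table (median log2 fold -2.99), and 20 and 1 in the high-fat table (median -2.86). The lowest was Siglech, a sialic acid receptor, at 4.70% and 3.26% of input in the authors' deposited tables. The exception was Lgmn, the lysosomal protease legumain, which was enriched at log2 folds of 0.46 and 0.50 in the authors' deposited tables. Trem2 and Slc2a5 were listed in neither table. Of 12 genes of activated microglia, 8 were listed in the authors' deposited chow table (6 depleted, 2 enriched) and 6 in the high-fat table (5 and 1). Among all listed tests 46.2% were depleted in chow and 44.8% in the high-fat table. Which cells the RNA of these genes came from was not tested. Cd9, a tetraspanin also found on other glia, was the lowest in chow (-4.44, and -3.69 after the high-fat diet, authors' deposited tables), and Ctsd, cathepsin D, was enriched (0.40 and 0.49) in a test it shares with overlapping genes.

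Few markers of other macrophages and of blood cells were listed. Of 10 genes of macrophages at the borders of the brain, 3 were listed in chow and 4 in the high-fat table, all depleted, with medians of -1.77 and -1.71 in the authors' deposited tables. Their summed level was 6.28 FPKM in the chow input and 2.24 FPKM in the immunoprecipitate, and 6.60 and 2.52 FPKM after the high-fat diet. The high-fat sums also hold Stab1 (input 0.490 FPKM), which was not listed in chow, so these sums do not compare the diets. Maf and Cd74 made up most of the chow input sum, at 2.44 and 3.40 FPKM, and Cd74 shares its test with another gene. The defining genes of border macrophages, Mrc1, Cd163, Lyve1 and Pf4, were listed in neither table. F13a1, a coagulation factor of these macrophages, was the lowest of those listed in both tables (-2.03 and -1.88, authors' deposited tables) and Maf, a transcription factor also used by neurons, the highest (-1.11 and -0.99). Of 8 genes of monocytes and neutrophils, 0 were listed in chow and 1, S100a8, in the high-fat table, with 1.23 FPKM in input and listed at 0 in the immunoprecipitate. The part of such cells in the members' levels was not tested.

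The members lay among the glial markers in size. Depletion was listed in both diets for all 12 markers of astrocytes and all 12 of oligodendrocytes, with medians of 11.9% and 9.40% of input in the authors' deposited chow table and 11.5% and 9.47% in the high-fat table, beside 8.32% and 8.37% for the members. In chow the members' range was within that of the oligodendrocyte markers, from 6.30% (Ermn, a cytoskeletal protein of myelin) to 20.7% (Cnp, an enzyme of myelin) in the authors' deposited chow table. In the authors' deposited high-fat table Mertk, at 7.05%, lay just below Ermn, at 7.07%. Aqp4, the water channel of astrocyte endfeet, stood at 7.70% and 7.67% of input in the authors' deposited tables, and Aldoc, a glycolytic enzyme of astrocytes, at 59.2% in both. Endothelial genes had 5 depleted and 1 enriched of 10 in each of the authors' deposited tables, and those listed in both ran in chow from Ly6c1, a surface protein of brain vessels, at -1.98 (-3.19 after the high-fat diet) to Itm2a, a membrane protein, at 0.73 (0.58). Neuronal genes had 11 enriched and 1 depleted of 13 in the authors' deposited chow table and 11 and 0 in the high-fat table. No test of the difference between these lists was made, so whether any value is particular to microglia is not known.

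**Figure D5:**
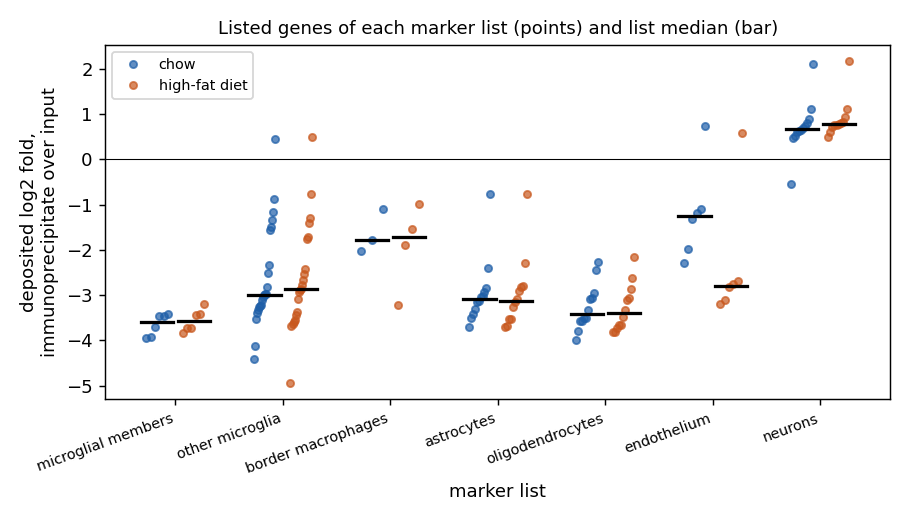
Deposited log2 fold of immunoprecipitate over input (y axis) for each listed gene with a finite fold (points) of 7 marker lists, with the list median (black bar), in chow (blue) and high-fat diet (orange). Medians of the microglial members, -3.59 and -3.58, lie near those of oligodendrocytes and astrocytes, and neuronal medians lie above 0.

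The 10 genes whose pair of folds was nearest to the members' medians, by Euclidean distance over the 2 diets among 5102 candidates with at least 1 FPKM in both inputs, were Gm38020, Selenop, Sparc, Slc7a11, Ttyh2, Ednrb, Tmem88b, S1pr1, Gm40578 and Mog, at distances from 0.013 to 0.075 log2 units. Sparc, a secreted matrix protein made by several kinds of glia and by endothelium, went from 587 to 48.3 FPKM in the authors' deposited chow table. Selenop, a selenium carrier, went from 136 to 11.4 FPKM in the same table. Mog, a glycoprotein of myelin, was the only one of the 10 on the marker lists used here.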

How the data were processed

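RNA of 16 libraries (4 input and 4 immunoprecipitate for each diet) was analysed from the authors' deposited tables, 1 for each diet. Per the labels' protocols, little RNA was available, so cDNA was made with poly(T) and random primers and amplified before library preparation, which can shift levels. Per the submitters' processing notes, the tools were Cuffdiff, Cufflinks 2.2.1, StringTie 1.3.4d and HISAT2 2.1.0, and the build was GRCm38.p6. The sources used here give neither settings nor scaling. Per the file headers, the authors deposited 1 FPKM per group, the log2 fold of immunoprecipitate over input, a signed test score, and a p-value and q-value. All entries are marked significant, with q-values up to 0.0499. Samples were grouped by title.

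Entries that repeat a locus and its values were merged, which left 6686 chow and 6540 high-fat tests. The call was the authors' q-value at 0.05. For the diet difference, the standard error of each fold was the fold divided by the deposited score. Tests needed at least 1 FPKM in a fraction of each diet, and Benjamini-Hochberg adjustment ran over all 5148 tests (SciPy 1.17.1). The calculation was checked on simulated data whose noise had exactly the standard errors given to the test. That check does not cover whether the recovered standard errors fit these data. Converted to a normal deviate, the deposited p-value exceeded the score by a median factor of 1.96 (chow) and 1.95 (high-fat) over all tests. The printed intervals are wider than the deposited p-value gives for P2ry12, but narrower for C1qb, Mertk, Ly86 and C1qa, whose p-values are the smallest in the tables. The tables held 0 unmapped columns of per-sample values. Members and lists were chosen with earlier results of these data known. Named genes were the members, the listed genes that act with a member, the lowest and highest chow fold of each other list among genes in both tables, and the 10 nearest patterns; other genes named for being absent, sparse or exceptions were chosen after their values were seen.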

Additional observations from a re-analysis of the deposited data

How the results depend on the processing

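All 6 listed members stayed depleted in both diets under each alternative that kept them. None of these alternatives could reverse a negative fold, so that direction was fixed in advance. The count stayed at 6 with at least a 2-fold or an 8-fold difference or 1 FPKM, and was 5 with at least 5 FPKM, which drops C1qa, in each diet, and 5 in the high-fat diet at a q of 0.01. The median log2 fold in chow became -3.95 when centred on all listed tests, -3.30 and -2.45 with pseudocounts of 0.1 and 1 FPKM, -3.47 with at least 5 FPKM and -3.70 without Mertk. In the high-fat table it became -3.96, -3.40, -2.43, -3.72 and -3.43 in the same order, and -3.42 without P2ry12 and Csf1r, an alternative chosen after seeing the data that left the chow median at -3.59. By construction, a pseudocount shrinks the fold of low levels, most for C1qa. The 24 single-gene values under centring or a pseudocount of 1 FPKM ran from -4.31 to -1.52. Their negative sign was fixed in advance, because a pseudocount keeps the sign and the subtracted medians were above 0. The diet difference called 0 members with no centring, with standard errors from the deposited p-value and with no filter on low values. The median input ratio of diets, 0.085, became 0.10 when centred and 0.083 and 0.068 with the pseudocounts, and that of the immunoprecipitates, 0.33, became 0.34, 0.26 and 0.11. No paired analysis was possible because no library has a value of its own in the tables, and for the same reason no replicate could be left out. Depth is unknown, and members at under 1 FPKM in the immunoprecipitate rest on few fragments for their length.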
